A study of Mus musculus with 140 samples.

Results

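The 9 Wnt pathway genes described here were followed by day in mouse embryonic stem cells that lost a regulator of self-renewal or were treated with retinoic acid: the ligands Wnt4 and Wnt6, the secreted antagonists Dkk1 and Sfrp1, the nuclear effectors Lef1, Tcf7 and Tcf7l1, and the target genes Axin2 and Sp5. Every probe set that the array annotation assigned to one of these genes and to no other gene was taken. That gave 18 of the 45265 probe sets of the MOE430A and MOE430B arrays, for 8 of the 9 genes: 5 for Sfrp1, 2 each for Wnt4, Wnt6, Axin2, Lef1, Tcf7l1 and Dkk1, and 1 for Sp5. No probe set carried the annotation Tcf7, which was not analysed here.

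The cells were CCE, an embryonic stem cell line of male 129/Sv mice, so that all courses describe 1 line. In 7 courses the cells were transduced with shRNA against Nanog, Oct4 (gene symbol Pou5f1), Sox2, Esrrb, Tbx3, Tcl1 or Mm343880, and in the control course with the empty H1P vector. LIF was present at 1000 units/ml in these 8 courses, and GFP+ cells were sorted daily from day 0, which was 48 h after transduction. The ninth course was kept in 5 µM retinoic acid without LIF, and its labels name no transduction or sort, so that retinoic acid, loss of LIF and lack of the vector cannot be told apart there. There were 70 samples, each on both arrays: days 0 to 7 in 7 courses, and days 0 to 6 in the Mm343880 and retinoic acid courses. Each day of each course was 1 sample with no replicate transduction, so p-values measure only the scatter of single days around smooth curves.

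Wnt ligands bind Frizzled receptors with an Lrp coreceptor and thereby protect beta-catenin from destruction. Beta-catenin then enters the nucleus and joins factors of the Tcf/Lef family on target genes. In embryonic stem cells Tcf7l1, also called Tcf3, is the most abundant of these factors and acts mainly as a repressor. Dkk1 blocks the Lrp coreceptor, Sfrp1 binds Wnt proteins outside the cell, and Axin2 and Sp5 are both induced by beta-catenin and dampen the pathway in return.

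The upstream sequences of these genes differed in whether they held the core letters bound by Tcf/Lef factors. RefSeq promoters (build GRCm38.p6) were found for 8 of the 9 genes in 12 windows of the 250 bases before a start site, and Sfrp1 was not matched. The motif CTTTGA was searched on both strands (reverse complement TCAAAG), and the longer CTTTGAT, which contains it, likewise. CTTTGA was found in 3 of the 12 windows and in 13.8% of all 32851 windows of the same length. CTTTGAT was found in 3.21% of all windows and, among the 12, in that of Sp5. A selection of 4 windows is shown, 5′ to 3′ on the gene's strand and with matches in capitals: Sp5 and Dkk1, each with 2 matches, Wnt4, the member with the largest rise, and Axin2, the classic target gene. They lie directly upstream of a start site at chr2:70474673-70474922 (+ strand, Sp5), chr19:30549497-30549746 (- strand, Dkk1), chr4:137277385-137277634 (+ strand, Wnt4) and chr11:108920099-108920348 (+ strand, Axin2). The Axin2 window lies inside the annotated gene, which begins at 108917828, so the bases before that first position were not searched.
Sp5: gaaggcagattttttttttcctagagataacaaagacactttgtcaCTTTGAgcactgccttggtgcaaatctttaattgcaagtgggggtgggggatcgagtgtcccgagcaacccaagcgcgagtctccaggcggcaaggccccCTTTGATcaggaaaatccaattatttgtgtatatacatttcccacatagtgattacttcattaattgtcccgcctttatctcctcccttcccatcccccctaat
Dkk1: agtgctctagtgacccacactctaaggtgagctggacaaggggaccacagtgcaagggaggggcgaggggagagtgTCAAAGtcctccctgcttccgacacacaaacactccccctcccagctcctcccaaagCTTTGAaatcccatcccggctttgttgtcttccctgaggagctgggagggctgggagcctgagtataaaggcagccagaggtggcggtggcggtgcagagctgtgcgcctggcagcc
Wnt4: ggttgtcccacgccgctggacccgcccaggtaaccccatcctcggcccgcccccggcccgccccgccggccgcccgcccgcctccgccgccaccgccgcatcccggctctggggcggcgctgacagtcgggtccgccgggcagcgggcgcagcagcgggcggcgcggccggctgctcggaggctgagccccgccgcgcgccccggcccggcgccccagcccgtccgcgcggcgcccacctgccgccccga
Axin2: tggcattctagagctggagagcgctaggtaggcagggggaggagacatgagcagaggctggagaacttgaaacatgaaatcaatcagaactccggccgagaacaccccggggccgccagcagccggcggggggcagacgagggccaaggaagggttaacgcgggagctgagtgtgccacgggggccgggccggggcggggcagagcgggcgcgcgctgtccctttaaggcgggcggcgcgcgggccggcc
In Sp5 the matches began 204 and 104 bases before the start site, and the nearer one was the longer motif. In Dkk1 they began 174 and 117 bases before it. The third window with a match was 1 of 4 Lef1 windows, with matches 180 and 120 bases before its start. It begins at 131156044, inside the annotated gene, which begins at 131110297, and no other Lef1 window had a match. No match in a window says only that these letters are not in those 250 bases.

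The values are MAS5 signals as deposited, on a linear scale without unit. Differences were fitted on log2(signal + a constant: 63.1 on MOE430A, 21.8 on MOE430B), which understates the change of dim genes. Each course was fitted with a smooth curve over days. The late difference is the mean of a course's curve on days 4, 5 and 6 minus that of the empty vector, and the change within a course is days 4 to 6 minus days 0 and 1. A probe set was called at an adjusted p under 0.05 over all 32992 probe sets tested. Of the 18 member probe sets 17 passed the filter on low signals, and 1 Axin2 probe set (1421341_at) did not. Sp5 passed only through 6 arrays of the Esrrb, Tbx3 and Mm343880 courses, Lef1 1421299_a_at only through the Esrrb and Tbx3 courses, and Sfrp1 1460187_at only through retinoic acid. Their calls in those courses are therefore not support for a difference. Both Dkk1 probe sets passed only through treated courses, with 0 arrays of the empty vector above the median. The late differences and changes of Dkk1 are likewise a description and not support.

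Late differences of the members were called in every treated course. In retinoic acid 11 of 17 probe sets were called, all higher, beside 43.6% of all probe sets (27.2% higher, 16.3% lower). In the Oct4 course 8 of 17 were called, 3 higher and 5 lower, beside 11.4% (4.59% higher, 6.81% lower). In the Sox2 course 8 of 17 were called, 6 higher and 2 lower, beside 16.5% (8.71% higher, 7.84% lower). In the Esrrb course 7 of 17 were called, 6 higher and 1 lower, beside 8.56% (5.33% higher, 3.23% lower). The Nanog course had 5 of 17, 3 higher and 2 lower, beside 15.6% (8.99% higher, 6.57% lower). The Tcl1 and Mm343880 courses had 4 of 17 each, 1 and 3 of them higher, beside 6.47% (3.55% higher, 2.92% lower) and 11.6% (6.38% higher, 5.23% lower). The Tbx3 course had 3 of 17, 2 higher and 1 lower, beside 8.04% (4.62% higher, 3.43% lower). The median late difference over all 18 member probe sets was 1.27 in retinoic acid, against 0.10 over all probe sets, and between -0.08 and 0.43 in the shRNA courses, against -0.09 to 0.06. All 8 comparisons share the empty vector course, and the members include up to 5 probe sets of 1 gene.

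**Figure D1:**
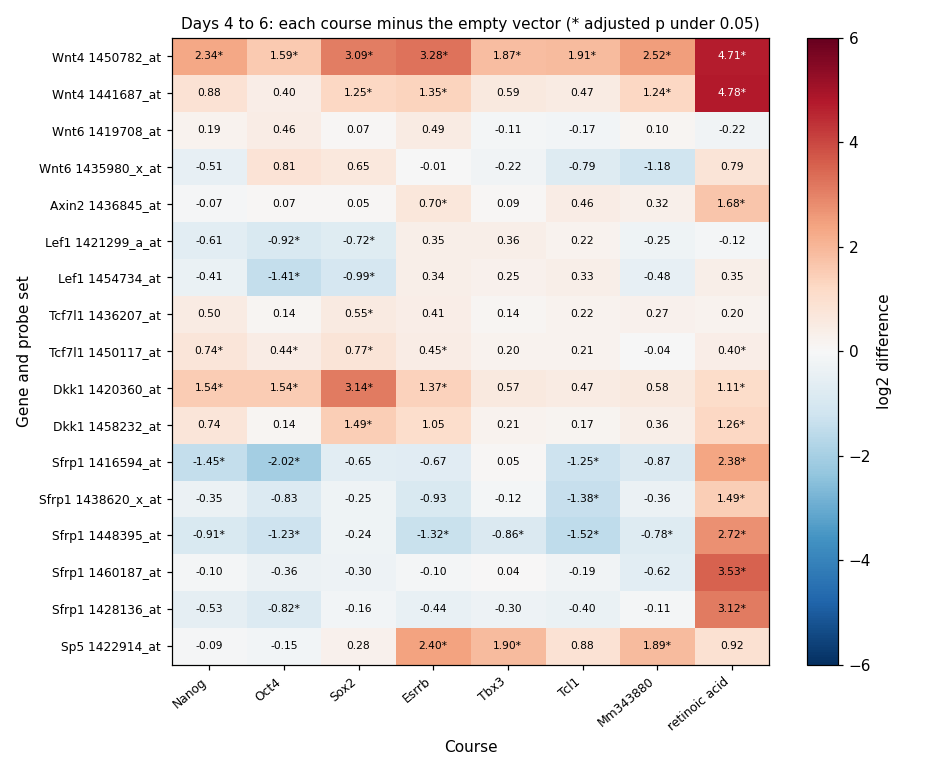
Late log2 difference of each course (columns) from the empty vector, as the mean of days 4 to 6, for the 17 member probe sets tested (rows); colour gives the size and an asterisk an adjusted p under 0.05. Wnt4 1450782_at is higher in all 8 columns (1.59 to 4.71), and the 5 Sfrp1 rows are higher in the retinoic acid column (1.49 to 3.53).

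The change from days 0 and 1 to days 4 to 6 was also fitted within each course, without the control. In the empty vector course limma called 0 of 17 member probe sets, beside 0.458% of all, with 3 at an unadjusted p under 0.05. Members called were 4 of 17 in the Nanog course (7.07% of all probe sets), 2 in the Oct4 course (5.36%), 2 in the Sox2 course (4.92%) and 6 in the Esrrb course (4.23%). They were 2 in the Tbx3 course (2.64%), 1 in the Tcl1 course (1.37%), 5 in the Mm343880 course (7.02%) and 11 in retinoic acid (25.5%). Each called change is shown in the plot of changes within courses.

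Wnt4, a ligand known for its role in kidney, gonad and mammary development, was the member with the broadest rise. On probe set 1450782_at the empty vector course ranged from 58 to 333 over 8 days, with a median of 76.35, and read 73, 228 and 62 on days 4, 5 and 6. On the same 3 days the Nanog course read 723, 1067 and 663, the Oct4 course 616, 500 and 381, and the Sox2 course 1656, 1927 and 920. The Esrrb course read 1210, 1769 and 1781, and ended at 2786 on day 7. In these 4 courses each late day lay above every day of the empty vector.
Signals in the Tbx3 course were 130, 851 and 1293, in the Tcl1 course 493, 728 and 519, and in the Mm343880 course 354, 1551 and 1298. In the Tbx3 course day 4 lay within the range of the empty vector and days 5 and 6 above it. Retinoic acid brought Wnt4 from 67 on day 0 to 3384, 5370 and 6093.
In all 8 comparisons the late log2 difference was called: 3.28 ± 0.42 (SE) in the Esrrb course, 3.09 ± 0.42 in the Sox2 course, 2.52 ± 0.43 in the Mm343880 course and 2.34 ± 0.42 in the Nanog course. It was 1.91 ± 0.42 in the Tcl1 course, 1.87 ± 0.42 in the Tbx3 course and 1.59 ± 0.42 in the Oct4 course, with an adjusted p of at most 0.0079. In retinoic acid it was 4.71 ± 0.43, or 26.2-fold. The change within the course was also called in all 7 shRNA courses and in retinoic acid, between 1.60 in the Oct4 course and 4.70 in retinoic acid, whereas the empty vector gave -0.40 ± 0.47 (adjusted p = 0.81).

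The second Wnt4 probe set, 1441687_at on the other array, gave the same direction with smaller steps in the shRNA courses. The empty vector ranged from 55 to 148 over 8 days. Days 4, 5 and 6 read 226, 301 and 221 in the Sox2 course, 247, 310 and 306 in the Esrrb course and 191, 394 and 233 in the Mm343880 course, all above that range. Late log2 differences were called there, at 1.25, 1.35 and 1.24 (SE 0.32 each), and in retinoic acid, at 4.78 ± 0.32, where the signal reached 4221 on day 6. Its change within the course was called in the Esrrb course (1.25), the Mm343880 course (1.40) and retinoic acid (5.34). In the Nanog, Oct4, Tbx3 and Tcl1 courses the late difference was 0.88, 0.40, 0.59 and 0.47 and was not called. Wnt4 calls on 1450782_at in the Nanog, Sox2 and Esrrb courses and in retinoic acid held under all 19 other settings tried. The Oct4 call was lost without day 4 or day 6, the Tbx3 call without day 5 or day 6 and the Mm343880 call without day 6.

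**Figure D2:**
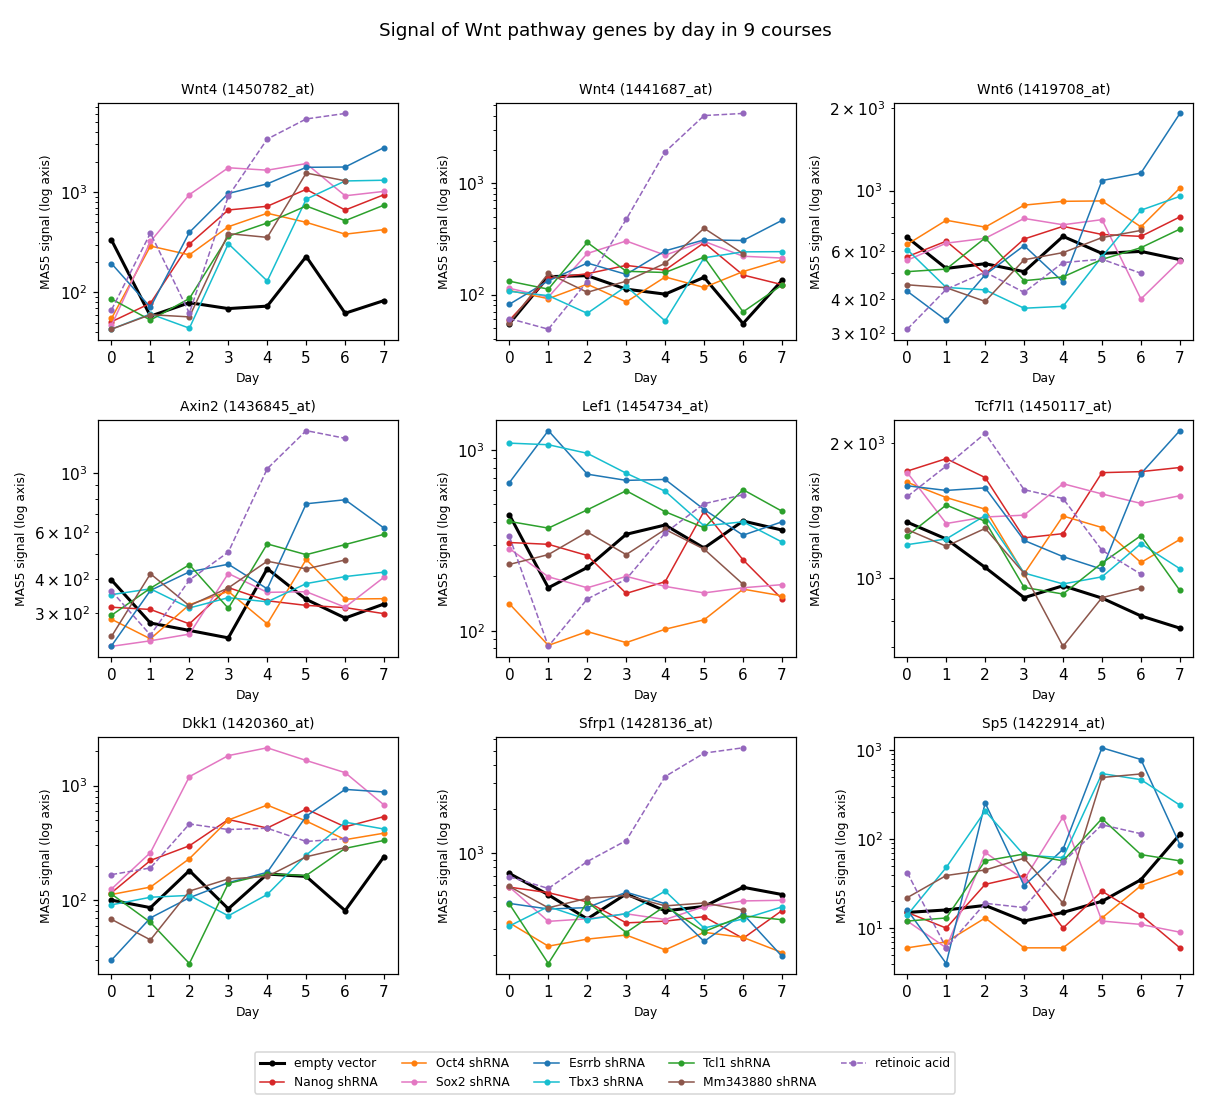
MAS5 signal (log axis) by day for 9 probe sets of the 8 genes, 1 line per course; each point is 1 sample, the thick black line is the empty vector and the dashed line retinoic acid. Wnt4, Sfrp1 and Axin2 rise farthest in retinoic acid, Dkk1 rises farthest in the Sox2 course to 2134 on day 4, and Lef1 is lowest in the Oct4 course on days 2 to 6.

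Wnt6, a ligand expressed in early embryonic ectoderm and trophoblast, was not called in any late comparison on either probe set. On 1419708_at the empty vector ranged from 504 to 679 over 8 days with a median of 573.0. Late differences ran from -0.22 in retinoic acid to 0.49 in the Esrrb course, with adjusted p from 0.057 to 0.86. The Esrrb course began below the control, at 427 and 334 on days 0 and 1, and then read 1088, 1159 and 1918 on days 5, 6 and 7. Those last 3 days lay above every other sample of all courses. Its change within the course was 1.03 ± 0.18 (adjusted p = 0.00016), called under all 19 other settings tried, and was the only Wnt6 change called. The other Wnt6 probe set, 1435980_x_at, was dim, between 3 and 158 over all samples.

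Dkk1, the secreted antagonist that binds Lrp coreceptors, rose in the courses of the core regulators and in the Esrrb course. On 1420360_at the empty vector read 169, 161 and 81 on days 4, 5 and 6 and ranged from 81 to 240 over 8 days. The Sox2 course read 1195 on day 2, 1824 on day 3, 2134 on day 4, 1654 on day 5 and 1295 on day 6, and was back at 676 on day 7. The Nanog course read 426, 623 and 436 on days 4 to 6, and the Oct4 course 675, 490 and 337. All of these days lay above every day of the empty vector.
The Esrrb course was later: 30 on day 0, 175 on day 4, then 540, 925 and 878 on days 5 to 7. Retinoic acid gave a plateau, with 462 on day 2 and 344 on day 6.
The late log2 difference was 3.14 ± 0.26 in the Sox2 course (8.80-fold, adjusted p = 2.3e-12), 1.54 ± 0.26 in each of the Nanog and Oct4 courses, 1.37 ± 0.26 in the Esrrb course and 1.11 ± 0.26 in retinoic acid. All 4 shRNA calls held under all 20 other settings, while that of retinoic acid was lost without day 6. The probe set passed the filter only through treated courses, so these calls are a description and not support. In the Tbx3, Tcl1 and Mm343880 courses the differences of 0.57, 0.47 and 0.58 were not called, and the Tbx3 signal was 479 on day 6. The change within the course was called in the Nanog (1.37), Oct4 (1.60), Sox2 (2.68), Esrrb (2.21) and Mm343880 (1.20) courses.

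The dimmer Dkk1 probe set 1458232_at was called in the Sox2 course (1.49 ± 0.47) and in retinoic acid (1.26 ± 0.48), and neither call held under every setting. It too passed the filter only through treated courses, so these calls are no support. Its change within retinoic acid was 1.46 ± 0.53. Markers of trophectoderm, the outer layer of the blastocyst, were higher in courses where Dkk1 was called and in courses where it was not. The summed signal of the 14 marker genes on days 4 to 6 was 5741 to 8833 in the empty vector, 77718 to 105219 in the Sox2 course, 84346 to 98046 in the Oct4 course and 52542 to 140305 in the Nanog course. In these 3 courses 12 of 13 tested markers were higher, while Gata3 and Elf5, and in the Oct4 and Sox2 courses Tfap2a, stayed below the array's median. The Esrrb course had 8 higher and a sum of 19568 to 59864. Where Dkk1 was not called, the Tbx3 course had 7 higher and 1 lower (8414 to 41784), the Tcl1 course 6 higher (9603 to 23356) and the Mm343880 course 7 higher (9570 to 38844). Over all probe sets 3.55% to 8.99% were higher in the shRNA courses. In retinoic acid, where Dkk1 was also higher, the sum was 13656 to 23835, with 6 markers higher and 4 lower (27.2% and 16.3% of all probe sets). Whether such cells contribute to the Dkk1 signal was not tested, and in sorted or whole cultures a change in the number of cells of a type and in RNA per cell cannot be told apart.

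Sfrp1, a secreted Frizzled-related protein that binds Wnts, was higher in retinoic acid on every probe set, and lower on some probe sets in all shRNA courses but that of Sox2. On 1428136_at the empty vector read 401, 430 and 582 on days 4, 5 and 6 and ranged from 353 to 723 over 8 days. Retinoic acid read 686 and 571 on days 0 and 1, 1215 on day 3 and 3330, 4816 and 5238 on days 4 to 6, all 3 far above the control. Every one of the 5 Sfrp1 probe sets was called higher there, with log2 differences of 3.53 ± 0.24, 3.12 ± 0.23, 2.72 ± 0.26, 2.38 ± 0.32 and 1.49 ± 0.41. All 5 were also called for the change within the course, by 2.05 to 3.17. The difference of 3.53 is that of 1460187_at, which passed the filter only through retinoic acid, so its calls there are no support.

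In the shRNA courses the 5 Sfrp1 probe sets did not give 1 answer. Probe set 1448395_at was lower in 6 of 7 courses, by -1.52 ± 0.26 in the Tcl1 course, -1.32 ± 0.26 in the Esrrb course, -1.23 ± 0.26 in the Oct4 course, -0.91 ± 0.26 in the Nanog course, -0.86 ± 0.26 in the Tbx3 course and -0.78 ± 0.26 in the Mm343880 course. The empty vector read 561, 583 and 455 on the late days, and the Tcl1 course 194, 167 and 97. Probe set 1416594_at was lower in the Oct4 (-2.02 ± 0.32), Nanog (-1.45 ± 0.32) and Tcl1 (-1.25 ± 0.32) courses. In the Oct4 course it read 69, 80 and 64 on days 4 to 6 and was already at 87 on day 0, when the empty vector read 427.
Probe set 1428136_at was lower in the Oct4 course (-0.82 ± 0.23), 1438620_x_at in the Tcl1 course (-1.38 ± 0.41), and 1460187_at in no shRNA course. The Sox2 course had no called Sfrp1 probe set, with differences of -0.65 to -0.16. Among the lower calls, that of 1416594_at in the Oct4 course and that of 1448395_at in the Tcl1 course held under all 19 other settings. The fall within the Nanog course on 1416594_at was -1.24 ± 0.36, and without day 0, when the signal was 691, it was 0.52 (adjusted p = 0.92). On 1448395_at that fall was -1.27 ± 0.29, and it was lost without day 0.

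**Figure D3:**
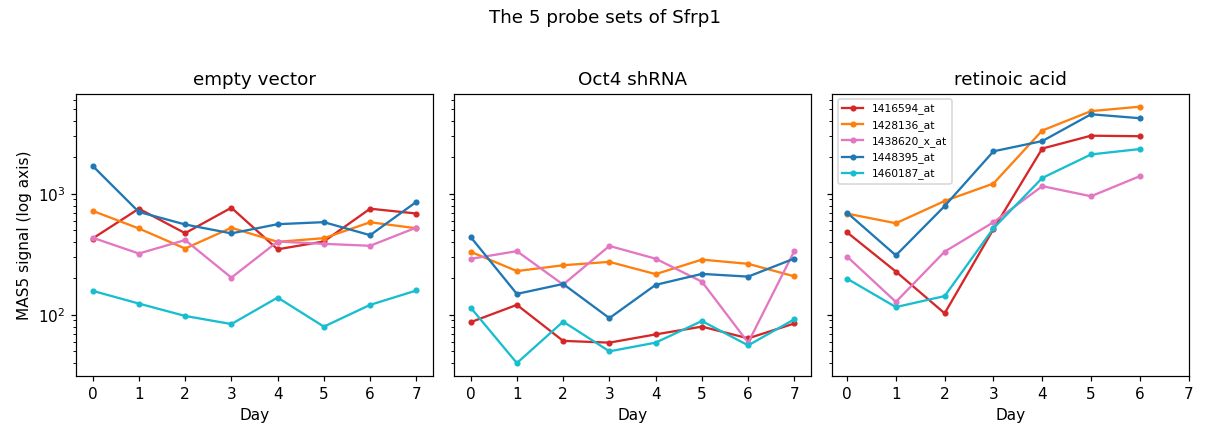
MAS5 signal (log axis) by day for the 5 Sfrp1 probe sets in the empty vector, Oct4 shRNA and retinoic acid courses; each point is 1 sample. In retinoic acid all 5 lines are higher on days 4 to 6 than on days 0 and 1, and reach 1398 to 5238 on day 6, while in the Oct4 course 1416594_at stays between 59 and 121.

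Lef1, a Tcf/Lef factor that mostly activates with beta-catenin, was lower after Oct4 and Sox2 shRNA. On 1454734_at the empty vector ranged from 173 to 438 over 8 days with a median of 351.2. The Oct4 course ranged from 83 to 170 and lay below every day of the empty vector on all 8 days, from day 0 on. The Sox2 course read 176, 162 and 173 on days 4 to 6, against 385, 287 and 405 in the empty vector. The late log2 difference was -1.41 ± 0.26 in the Oct4 course (adjusted p = 9e-05), held under all 20 other settings, and -0.99 ± 0.26 in the Sox2 course (adjusted p = 0.0047), lost without day 4.
The second probe set, 1421299_a_at, was lower in the same courses, by -0.92 ± 0.26 and -0.72 ± 0.26, and the Sox2 call held under only 3 of 19 other settings.
In the Esrrb and Tbx3 courses Lef1 started high. The Tbx3 course fell from 1093 on day 0 to 592, 381 and 401 on days 4 to 6, a change of -1.25 ± 0.29 (adjusted p = 0.0074), which was lost without day 0. The Esrrb course read 661 and 1282 on days 0 and 1 and 338 on day 6. On days 4 to 6 both were within 0.34 of the empty vector on this probe set and not called. In retinoic acid Lef1 read 333 on day 0, 82 on day 1 and 566 on day 6, a change of 1.18 ± 0.29 that was lost without day 6.

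Tcf7l1, the main repressive factor of the family in these cells, had late differences of at most 0.77. On 1450117_at the empty vector drifted from 1332 on day 0 to 773 on day 7, and read 961, 902 and 823 on days 4 to 6. The Sox2 course read 1623, 1540 and 1467, and the Nanog course 1256, 1718 and 1727, all above the control on these days. Late log2 differences were 0.77 ± 0.14 in the Sox2 course (1.70-fold) and 0.74 ± 0.14 in the Nanog course (1.67-fold), and both calls held under all 20 other settings. They were 0.45 ± 0.14 in the Esrrb course, 0.44 ± 0.14 in the Oct4 course and 0.40 ± 0.14 in retinoic acid. The Esrrb and retinoic acid calls were lost with quantile normalization, and all 3 without day 4 or day 5. The change within the course was not called in the 4 shRNA courses with a late call, and was -0.52 in the Mm343880 course and -0.46 in retinoic acid, where the level was 2102 on day 2 and 1020 on day 6. The second probe set, 1436207_at, was called in the Sox2 course only (0.55 ± 0.19), under 9 of 19 other settings.

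Axin2, the scaffold of the destruction complex and a widely used readout of beta-catenin activity, was higher in retinoic acid and in the Esrrb course. On 1436845_at the empty vector ranged from 242 to 439 over 8 days and read 439, 337 and 287 on days 4 to 6. Retinoic acid read 1037, 1439 and 1347 on these days, and the Esrrb course 369, 767 and 794. The retinoic acid days lay clear of the control, while day 4 of the Esrrb course lay within its range. The late log2 difference was 1.68 ± 0.19 in retinoic acid (3.21-fold, adjusted p = 4.1e-10), held under all 20 other settings, and 0.70 ± 0.19 in the Esrrb course (adjusted p = 0.010), lost without day 5 or day 6. The changes within these courses were 1.79 ± 0.21 and 0.95 ± 0.21. In the Nanog, Oct4, Sox2 and Tbx3 courses the late difference was -0.07, 0.07, 0.05 and 0.09, and in the Tcl1 course, at 543, 495 and 540, it was 0.46 and not called.

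Sp5, a transcription factor of the Sp family and a direct target of beta-catenin, was dim in most samples and high on days 5 and 6 of 3 courses. The empty vector ranged from 12 to 35 on days 0 to 6 and read 113 on day 7. The Esrrb course read 77 on day 4, 1063 on day 5, 785 on day 6 and 87 on day 7. The Tbx3 course read 62, 545, 466 and 241 on the same 4 days, and the Mm343880 course 19, 493 and 540 on days 4 to 6. These were the only 3 courses with a day above 283.3, the median of the MOE430A table. Late log2 differences were 2.40 ± 0.51, 1.90 ± 0.51 and 1.89 ± 0.51 in these courses, with adjusted p of 0.0011, 0.013 and 0.011. All 3 were lost without day 5, and those of the Tbx3 and Mm343880 courses also without day 6. The change within the course was called in the Esrrb (2.40) and Mm343880 (1.80) courses. Sp5 passed the filter only through the Esrrb, Tbx3 and Mm343880 courses, so its late differences and changes there are a description and not support. In retinoic acid, where Axin2 was highest, Sp5 reached 145 on day 5, and the difference of 0.92 was not called. In the Oct4 course it stayed between 6 and 43.

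**Figure D4:**
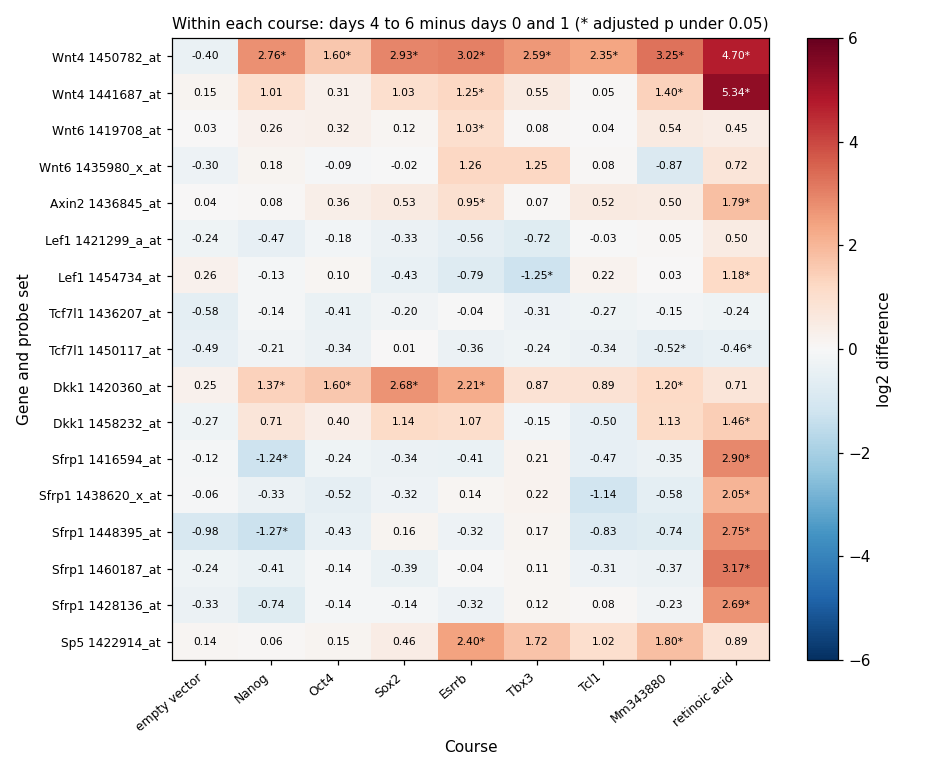
Log2 change within each course (columns, empty vector included), days 4 to 6 minus days 0 and 1, for the 17 member probe sets tested (rows); an asterisk marks an adjusted p under 0.05. The empty vector column has no asterisk, and Wnt4 1450782_at has one in each of the other 8 columns.

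Differences between treated courses were fitted directly, without the shared control. The courses of Nanog, Oct4 and Sox2, together called the core regulators here, were set against those of Esrrb, Tbx3 and Tcl1 over days 4 to 6. In that comparison 9 of 17 member probe sets were called, beside 24.9% of all. The mean of the core regulator courses was higher for Dkk1, by 1.27 ± 0.15 on 1420360_at, and for Tcf7l1, by 0.36 ± 0.08 on 1450117_at. Late differences of Dkk1 from the empty vector were 3.14 (Sox2), 1.54 (Nanog) and 1.54 (Oct4), against 1.37 (Esrrb), 0.57 (Tbx3) and 0.47 (Tcl1). Those of Tcf7l1, in the same order, were 0.77, 0.74 and 0.44, against 0.45, 0.20 and 0.21. The means thus do not describe each course, and their errors do not measure the spread between courses. For Lef1 the mean was lower on both probe sets, by -1.24 ± 0.15 and -1.06 ± 0.15, as it was for Sp5, by -1.71 ± 0.29, and Axin2, by -0.40 ± 0.11. Sp5 passed the filter only through the Esrrb, Tbx3 and Mm343880 courses and Lef1 1421299_a_at only through those of Esrrb and Tbx3, so their differences here are a description and not support. Of the other 4, the Axin2 call was lost without day 5 or day 6, and those of Dkk1, Tcf7l1 and Lef1 1454734_at held under all 20 other settings. Sfrp1 gave opposite signs on 2 of its probe sets, -0.75 ± 0.18 on 1416594_at and 0.44 ± 0.15 on 1448395_at. The dim Wnt6 probe set 1435980_x_at was higher by 0.65 ± 0.23, under 9 of 19 other settings, and Wnt4 was not called on either probe set.

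Within the core regulators, Nanog and Oct4 shRNA differed in 2 of 17 probe sets (7.8% of all), with Lef1 1454734_at higher by 1.0 ± 0.26 in the Nanog course, and the dim Wnt6 probe set 1435980_x_at lower there by -1.32 ± 0.40. Oct4 and Sox2 shRNA differed in 4 of 17 (4.66% of all). There Dkk1 was lower in the Oct4 course by -1.60 ± 0.26, Wnt4 1450782_at by -1.50 ± 0.42, and Sfrp1 by -1.38 ± 0.32 and -0.99 ± 0.26 on 2 probe sets. Only the Dkk1 difference of these held under all other settings. Esrrb and Tbx3 shRNA differed in 1 of 17 (1.61% of all), Wnt6 1419708_at at 0.60 ± 0.17 (adjusted p = 0.048).
Oct4 shRNA and retinoic acid differed in 11 of 17 (41.8% of all). All 5 Sfrp1 probe sets were lower in the Oct4 course, by -4.40 to -2.32, and both of Wnt4, by -4.38 ± 0.32 and -3.12 ± 0.43. Axin2 was lower by -1.61 ± 0.19 and Lef1 by -1.76 ± 0.26 and -0.80 ± 0.26, while Wnt6 1419708_at was higher by 0.68 ± 0.17. Of the Sfrp1 probe sets, 1460187_at passed the filter only through retinoic acid, so its difference is no support. Dkk1 1420360_at, higher than the empty vector in both courses, was not called between them.

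The rest of the pathway was read from 6 lists by role. In retinoic acid 24 of 37 probe sets for receptors were higher and 4 lower, 22 of 42 for cytoplasmic transduction were higher and 4 lower, and 11 of 24 for other nuclear effectors were higher and 3 lower. Of the ligand and secretion probe sets 6 of 20 were higher and 4 lower, of the antagonists 7 of 19 and 2, and of target genes of beta-catenin 8 of 26 and 9. Over all probe sets tested 27.2% were higher and 16.3% lower there, which the ligand and target gene counts of higher probe sets lie near. Medians over all probe sets of a list were 1.14 for receptors, 0.58 for cytoplasmic transduction, 0.56 for nuclear effectors, 0.31 for antagonists, 0.21 for ligands and -0.01 for target genes, against 0.10 over all features. In each list the count of higher probe sets was largest in retinoic acid. Counts of lower ones were at times as large or larger in an shRNA course. The Mm343880 course had 5 of 37 receptors and 5 of 24 nuclear effectors lower (5.23% of all probe sets). The Sox2 course had 9 of 26 target genes lower (7.84% of all). For receptors, the Esrrb course had 8 of 37 higher and 3 lower (5.33% and 3.23% of all probe sets), and the Tcl1 course 2 higher and 2 lower (3.55% and 2.92%). limma called 0 of 24 nuclear effectors in the Esrrb course, beside 8.56% of all probe sets (6 at an unadjusted p under 0.05). It called 0 of 19 antagonists in the Tbx3 and Tcl1 courses, beside 8.04% and 6.47% (5 and 1 at an unadjusted p under 0.05). In lists this short a count of 0 is not far from these shares.

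Among ligand genes, Wls, which carries Wnt proteins to the cell surface, was called higher in 7 of the 8 comparisons on 1423824_at. Its log2 difference was 4.87 ± 0.32 in retinoic acid (29.2-fold), 2.73 in the Sox2 course, 2.50 in the Esrrb course and 2.10 in the Mm343880 course, and 0.18, not called, in the Oct4 course. Steps were smaller on Wls 1423825_at, with late means of 92.0 to 201.0 in the shRNA courses and 1211 in retinoic acid, against 103.5 in the empty vector. On 1437434_a_at the means were 185.3 to 1287 in the shRNA courses and 3276 in retinoic acid, against 151.3. Wnt9a was 15.0-fold higher in retinoic acid. Porcn, the enzyme that attaches the lipid to Wnt proteins, was 4.05-fold lower in retinoic acid, and Wnt7b 2.28-fold lower there but higher in the Oct4 course by 1.14. Among receptors, Ror1 was 23.6-fold higher in retinoic acid on 1429313_at, 3.37-fold on 1429312_s_at, and not called on 1451014_at (0.59). Fzd4 was 11.7-fold and 5.75-fold higher there on its 2 probe sets. Fzd5 was lower in all 8 comparisons on 1422937_at, from -1.01 in the Tbx3 course to -2.84 in retinoic acid, and Fzd9 was 3.29-fold lower in the Nanog course. Late means of Fzd9 were 53.0 in the Nanog course, 55.9 in retinoic acid and 64.3 in the Esrrb course, against 349.6 in the empty vector. In the other courses they were 99.5 to 219.1.

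Of the cytoplasmic genes, Gsk3b, the kinase that marks beta-catenin for destruction, was higher on 1451020_at in all 8 comparisons, from 0.74 in the Esrrb and Tcl1 courses to 3.10 in retinoic acid. Its probe sets differed, and 1439931_at was not called in any comparison. In retinoic acid Tnks was 5.93-fold higher on 1433778_at, with 1432630_at not called (0.32), and Frat2 was 6.59-fold lower. The dim Csnk1a1 probe set 1430529_at was 2.85-fold lower in the Tcl1 course. The brighter 1424827_a_at and 1428537_at had late means of 4720 and 1734 in that course, against 4294 and 1664 in the empty vector. In retinoic acid these 2 read 8532 and 5927. Among nuclear genes, Tle3 was 4.31-fold higher in retinoic acid on 1458512_at and by 0.69 to 1.07 in log2 on its 3 other probe sets, Tcf7l2 was 3.65-fold higher, and Tle6 was 3.70-fold lower. Ctnnb1, the gene of beta-catenin, was higher in retinoic acid on all 3 probe sets by 0.65, 1.67 and 1.06, and lower on 1 of them in the Mm343880 course, by -0.83 ± 0.22. Of the feedback genes, Nkd1 was 6.58-fold higher in retinoic acid and Dkkl1, an antagonist-like gene, 5.02-fold higher in the Sox2 course, 2.11 in log2 in the Oct4 course and 1.88 in the Nanog course. Sfrp2 was 2.59-fold lower in the Sox2 course and Notum 2.25-fold lower in the Oct4 course. Late means of Sfrp2 were 140.2 in the Sox2 and 178.3 in the Oct4 course, against 451.3 in the empty vector and 393.7 to 757.4 elsewhere. Those of Notum were 389.7, 357.9 and 318.9 in the Nanog, Oct4 and Sox2 courses, against 848.9 in the empty vector and 464.5 to 838.7 elsewhere. Among target genes, Msx2 was 5.74-fold higher in the Sox2 course on 1449559_at and Msx1 5.66-fold higher in retinoic acid on 1448601_s_at. The other probe set of each was not called there, at 0.28 for Msx2 1438351_at and 0.01 for Msx1 1417127_at. The rise of Msx2 1449559_at was not particular to the Sox2 course. Its late mean was 983.1 there and 981.3 in retinoic acid, against 142.2 in the empty vector, and 221.9 to 719.0 in the other shRNA courses. Esrrb was 37.0-fold (on 1436926_at) and Ascl2 3.42-fold lower in retinoic acid, and Ascl2 1460514_s_at was higher in the Nanog course by 2.36.

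**Figure D5:**
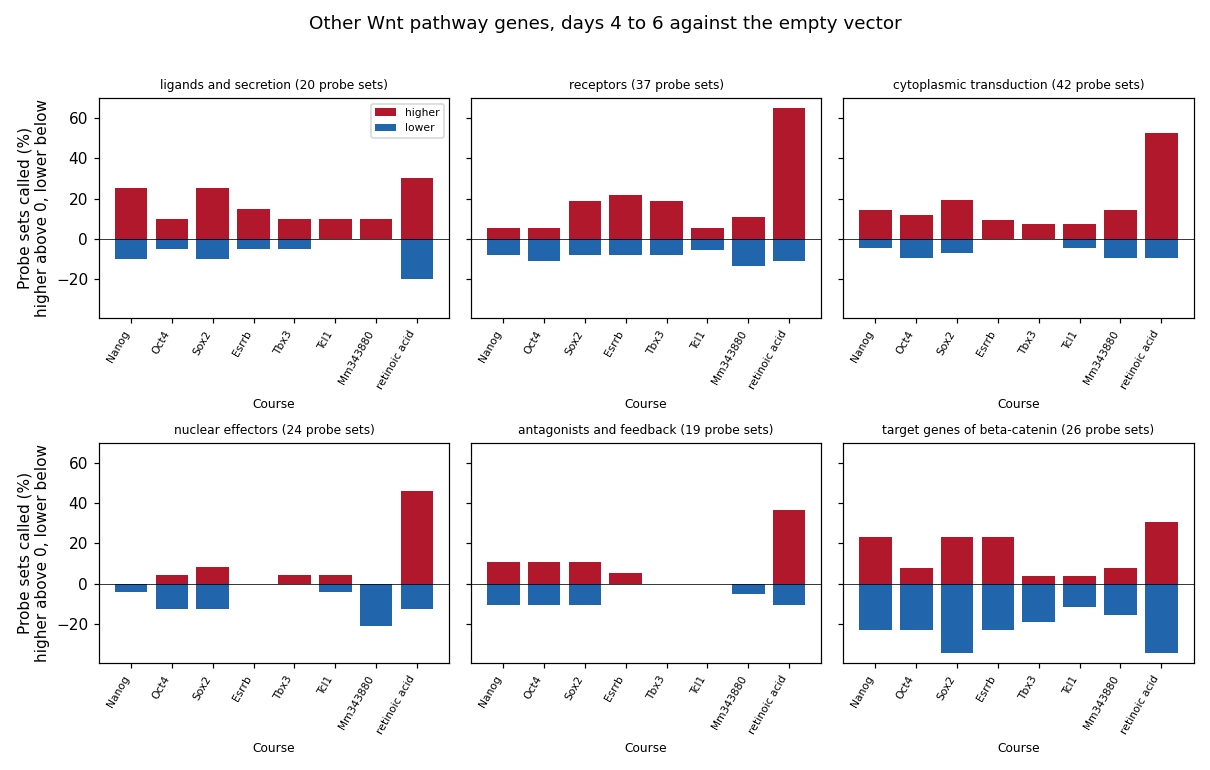
Share of tested probe sets called higher (above 0) and lower (below 0) on days 4 to 6 against the empty vector, in percent, for 6 lists of other Wnt pathway genes, by course. The largest share is that of receptors in retinoic acid, 24 of 37 higher.

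The genes whose signal was most like that of each member over all 70 samples differed between members. For Dkk1 they were Krt8 (r = 0.86), a keratin of simple epithelia that is also among the trophectoderm markers above, Emp2 and Elovl1 (0.85 each), with 0.86 for each over the 63 samples outside retinoic acid. For Sp5 the nearest was Fgf8, a ligand of the primitive streak (0.73, and 0.75 outside retinoic acid). Of 8 tested markers of mesoderm and primitive streak, 1 was higher in each of the Esrrb, Tbx3 and Mm343880 courses (5.33%, 4.62% and 6.38% of all probe sets). Mixl1, Gsc, Evx1 and Tbx6 lay below the array's median late in these courses, as did Fgf8 in those of Tbx3 and Mm343880. For Lef1 the nearest was Tfe3 (0.79 and 0.82). For Axin2 they were Axl and Cxcl12 (0.81 each) and Col3a1, a fibrillar collagen (0.78), for Wnt6 Tspan9, Septin4 and Stard10 (0.73 each) and for Tcf7l1 Dynll2 (0.72). Those of Sfrp1 rested on the retinoic acid course: Zfp827 had 0.88 over all samples and 0.32 without it, Abat 0.87 and 0.07, and Epha7 0.87 and 0.23. Ccn4, a target of Wnt signalling, followed Wnt4 1441687_at at 0.86, and at 0.54 without retinoic acid. Days of a course share their cells and arrays, so these values are descriptions. Probe sets of the same member correlated with each other between 0.45 and 0.86 over 16 pairs.

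Several measures of the whole series bear on these values. Each targeted gene was lower than the empty vector on 8 of 8 days, by 6.78-fold for Nanog, 6.07-fold for Pou5f1, 4.75-fold for Sox2, 2.69-fold for Esrrb (on 1441921_x_at), 6.51-fold for Tbx3 and 3.63-fold for Tcl1, and the target of the Mm343880 course was not analysed here. On days 4 to 6 the 3 Esrrb probe sets differed in size in the Esrrb course, at -3.24, -2.13 and -1.42 in log2. All 8 markers of embryonic stem cells lay above the array's median late in the empty vector. Of these, 7 were lower in the Nanog course and 8 in each of the Oct4, Sox2 and retinoic acid courses, and in retinoic acid Pou5f1, Nanog, Zfp42, Fgf4 and Tdgf1 lay below it. Summed fibroblast markers on days 4 to 6 were raised where Axin2 was called: 4203 to 4964 in the empty vector, 29294 to 35073 in the Esrrb course, where 5 of 9 were higher and 1 lower, and 35281 to 44022 in retinoic acid, where 7 of 9 were higher and 1 lower. Lum and S100a4 lay below the median in both, with Col3a1 and Postn in the Esrrb course and Dcn in retinoic acid. The fibroblast sum was also raised where Axin2 was not called. It was 23865 to 28439 in the Sox2 course, 19770 to 26861 in the Tcl1 course and 17480 to 40421 in the Mm343880 course. In these courses 4, 2 and 3 of 9 tested markers were higher, and 1 was lower in the Sox2 course. Col1a1, Col3a1, Postn, Lum and S100a4 lay below the median in each, so the sum is not a rise of the list as a whole. The fibroblast list also names the contractile genes Acta2 and Tagln. Summed markers of extraembryonic endoderm were 7384 to 9828 in the empty vector and 37987 to 51681 in retinoic acid, with Sox17, Amn and Afp below the median. In the shRNA courses they ran from 9909 in the Tbx3 course to 23008 in the Sox2 course. In the Nanog course 7 of 13 were higher, and in the Oct4 and Sox2 courses 5 each were higher and 1 each lower. Gata4, Sox17, Foxa2, Lama1 and Afp lay below the median in the Oct4 and Sox2 courses, with Pth1r and Amn in the Sox2 course. In the Nanog course Pth1r and Afp did. Over all probe sets 3.55% to 8.99% were higher and 2.92% to 7.84% lower in the shRNA courses, and 27.2% and 16.3% in retinoic acid. The part of these cell types in the results was not tested. Array medians ran from 236.2 to 382.9 on MOE430A and from 64.5 to 128.5 on MOE430B. The median late difference of all tested probe sets in retinoic acid was 0.16, and -0.11 after quantile normalization. That moved the share of higher calls there from 62.5% to 46.2%, and in the Nanog course from 57.8% to 46.8%. For changes within a course it moved from 79.3% to 64.8% for Tbx3, from 63.1% to 47.5% for Mm343880 and from 59.1% to 45.8% for retinoic acid. For Nanog against Oct4 it moved from 70.4% to 45.0%, for Oct4 against Sox2 from 32.5% to 44.9% and for Oct4 against retinoic acid from 32.1% to 53.5%. No called member difference changed sign with it. Days 3 and 4 of the Mm343880 course and day 6 of the Sox2 course lay farthest from their curves; without them 51 of 136 late member differences were called in place of 50.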

How the data were processed

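RNA of 70 samples was hybridised to Affymetrix MOE430A and MOE430B arrays (140 arrays). The deposited values are signal intensities on a linear scale, made with MAS5 per the submitters' processing notes, with no version stated. The 100 control probe sets that both arrays share have a 2%-trimmed mean of 2500 on every array, so each array carries 1 scaling factor. The number of arrays limits the precision. Probe sets were named through the GEO platform annotation and RefSeq gene tables (GRCm38.p6).

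Intensity plus the 20th percentile of each table was log2-transformed. Probe sets above their table's median (283.3 and 89.2) on at least 3 arrays were kept: 15497 and 17495. Each course was given a natural spline over days (3 degrees of freedom), fitted per table with limma 3.58.1 in R 4.3.3 (lmFit, eBayes with trend), with all courses sharing 1 residual variance. Adjusted p-values are Benjamini-Hochberg over both tables and two-sided; errors are standard errors. The code was tested on simulated data with known changes placed in the Nanog course. Of 100 late differences of size 1 in log2, 51 were called, and of 100 of size 2, 90. For changes within the course these counts were 39 and 84. A difference that was not called is thus not shown to be absent. Named genes were all members, and of each pathway list the 2 genes with the largest rise and the 2 with the largest fall among called probe sets, plus Ctnnb1; also the 3 most correlated genes per member, on the probe set with the highest mean rank. The members and lists were chosen with earlier results of these data known. Alternatives were other pseudocounts, no filter, quantile normalization, other curves, 1 value per gene, fewer courses, day as a block and each day left out; array quality weights and leaving out 3 samples far from their curves were chosen after seeing the data. Pathway genes named with several probe sets are given by the probe set stated or by the largest call.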

Additional observations from a re-analysis of the deposited data

Results flagged for a closer look

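In 2 of 72 member signals tested, over the days of a course, 1 day stood apart from the others; chance gives about 1 in 20. Lef1 1454734_at read 285 on day 0 of the Sox2 course, and 162 to 200 on the other days. Sp5 read 113 on day 7 of the empty vector, and 12 to 35 on the other days; day 7 enters no late difference directly.

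Of 40 direct differences between courses tested on 1 probe set per gene, 13 were called by limma. Over all probe sets 24.9% were called for the core regulators against Esrrb, Tbx3 and Tcl1, and 7.8% for Nanog against Oct4. The shares were 4.66% for Oct4 against Sox2, 1.61% for Esrrb against Tbx3 and 41.8% for Oct4 against retinoic acid. Against the mean of the Esrrb, Tbx3 and Tcl1 courses, the mean of the Nanog, Oct4 and Sox2 courses differed on the log2 scale. The differences were -0.40 for Axin2, -1.24 for Lef1, 0.36 for Tcf7l1, 1.27 for Dkk1 and -1.71 for Sp5. Sp5 passed the filter only through the Esrrb, Tbx3 and Mm343880 courses, so its difference is a description. Nanog minus Oct4 shRNA was 1.0 for Lef1, Oct4 minus Sox2 shRNA was -1.60 for Dkk1, and Esrrb minus Tbx3 shRNA was 0.60 for Wnt6. Oct4 shRNA minus retinoic acid was -4.38 for Wnt4, 0.68 for Wnt6, -1.61 for Axin2, -1.76 for Lef1 and -3.94 for Sfrp1.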

How the results depend on the processing

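As reported, 50 of 136 late differences, 33 of 153 changes within a course and 27 of 85 direct differences of member probe sets were called. With 1 probe set per gene, which leaves fewer features to test, the counts were 26, 18 and 13. In place of a spline, means of days 0 and 1 and of days 4 to 6 were also compared, with the other days not used. That setting, which has fewer samples, gave 30 late differences and 19 changes. Leaving out each day in turn gave 31 to 51 late differences (31 without day 6) and 15 to 33 changes (15 without day 0); those settings remove samples from the groups compared. Of 110 called differences 47 stayed called in the same direction under every setting run for them, and of 264 not called 224 stayed so. The sign of 1 called value reversed: Sfrp1 1416594_at within the Nanog course, -1.24, ran from -1.87 to 0.52 as each day was left out, with 0.52 without day 0; the cause was not tested. The fit of array quality weights stopped before its convergence tolerance, and gave 50, 40 and 30 calls. Signals near background, as for Sp5, Dkk1 1458232_at and Wnt6 1435980_x_at, limit what can be read from their differences. With courses matched by day, as a block over days 4 to 6, 37 late and 20 direct differences were called.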
